A study of Mus musculus with 6 samples.

Results

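The 10 genes described here encode parts of the neuronal cytoskeleton and proteins that mark neurons: *Nefl*, *Nefm*, *Nefh*, *Ina*, *Prph*, *Stmn2*, *Stmn3*, *Tubb3*, *Gap43* and *Uchl1*. They were picked by symbol from a table of 55492 mouse genes, because *Nefl* and *Nefm* were higher in mutant than in wild-type cells. Each symbol matched 1 row, and all 10 passed the filter on low values. The genotype difference was part of that choice, so the values of the members between genotypes are given as a description, with no p-value, and nothing is rested on how many of them were called.

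The samples were cells carrying the surface antigen O4, a sulfated lipid epitope of late oligodendrocyte progenitors and of the oligodendrocytes that follow them. They were captured on magnetic microbeads from the brains of mice at postnatal day 16 (P16). Of the 6 mice, 3 were wild type (WT) and 3 were Npc1-/-, homozygous for the *Npc1* nih null allele in every cell of the body. Npc1-/- mice were F1 hybrids of heterozygous parents, 1 on BALB/cJ and 1 on C57BL6/J. No mouse was treated. The sources name 3 biological replicates per genotype and do not mention pooling for RNA, so each poly(A) RNA library is taken as 1 mouse. *Npc1* encodes a lysosomal cholesterol transporter that is deficient in Niemann–Pick disease Type C, and the comparison asks how its loss alters RNA levels in O4+ cells.

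Neurofilaments are the intermediate filaments of axons. They are built from a light (*Nefl*), a medium (*Nefm*) and a heavy (*Nefh*) subunit, joined by α-internexin (*Ina*) or, mainly in peripheral and some brainstem neurons, by peripherin (*Prph*). They fill large myelinated axons and set their calibre. Oligodendrocytes are not known for neurofilaments, whereas the axons that they wrap are full of them. Levels below are TPM, an abundance per transcript length whose total is fixed in each library, divided by a size factor per library and called scaled TPM. Differences are log2 fold changes, Npc1-/- minus WT, of scaled TPM plus 0.5, with the standard error (SE) of a limma fit over the 15245 genes whose mean TPM reached 0.5.

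*Npc1* itself stood at 53.3, 50.4 and 45.5 TPM in the WT libraries and at 4.10, 4.42 and 3.16 TPM in the Npc1-/- libraries, matching the labels. The libraries held an estimated 40500000 to 50750000 fragments each. *Mbp*, the main mRNA of myelin sheaths, took 18.8% to 26.1% of all TPM, so these cells bore a strong oligodendrocyte signature. The summed scaled TPM of 3 oligodendrocyte progenitor markers (*Pdgfra*, *Cspg4* and *Smoc1*) was 33.7 to 49.3. One library stood apart: Npc1-/- replicate 3 held *Xist*, the RNA of the inactive X chromosome, at 15.6 TPM and *Ddx3y* of the Y chromosome at 0 TPM, whereas the other 5 held *Xist* at no more than 0.01 TPM. It is therefore left out in turn below, as is each other library.

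*Nefl*, the subunit that neurofilaments cannot assemble without, was listed at 17.3, 14.4 and 17.1 scaled TPM in WT and at 39.4, 33.3 and 43.5 in Npc1-/- libraries. Every mutant library lay above every WT library. The WT mean was 16.3 ± 1.59 and the Npc1-/- mean 38.7 ± 5.10 (each SD, n = 3), a 2.38-fold difference, or 1.22 on the log2 scale (SE 0.13). *Nefm*, whose long tail links filaments to their neighbours, stood at 6.71, 6.45 and 7.19 scaled TPM in WT and at 16.1, 13.5 and 16.0 in Npc1-/- libraries. Its levels were the tightest within a genotype among the 5 filament genes, and the groups did not overlap. The fold was 2.24 and the log2 fold change 1.11 (SE 0.11).

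*Nefh*, whose tail carries the phosphorylated lysine-serine-proline repeats of mature axons, gave 27.6, 18.7 and 17.4 scaled TPM in WT and 61.8, 41.2 and 48.5 in Npc1-/- libraries. The groups did not overlap, and replicate 1 was the highest of each. Its fold of 2.38 was close to that of *Nefl*, with a wider error (log2 fold change 1.24, SE 0.21). Without any 1 library the log2 fold change of *Nefl* stayed between 1.13 and 1.33, that of *Nefm* between 1.07 and 1.19 and that of *Nefh* between 1.09 and 1.44.

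**Figure D1:**
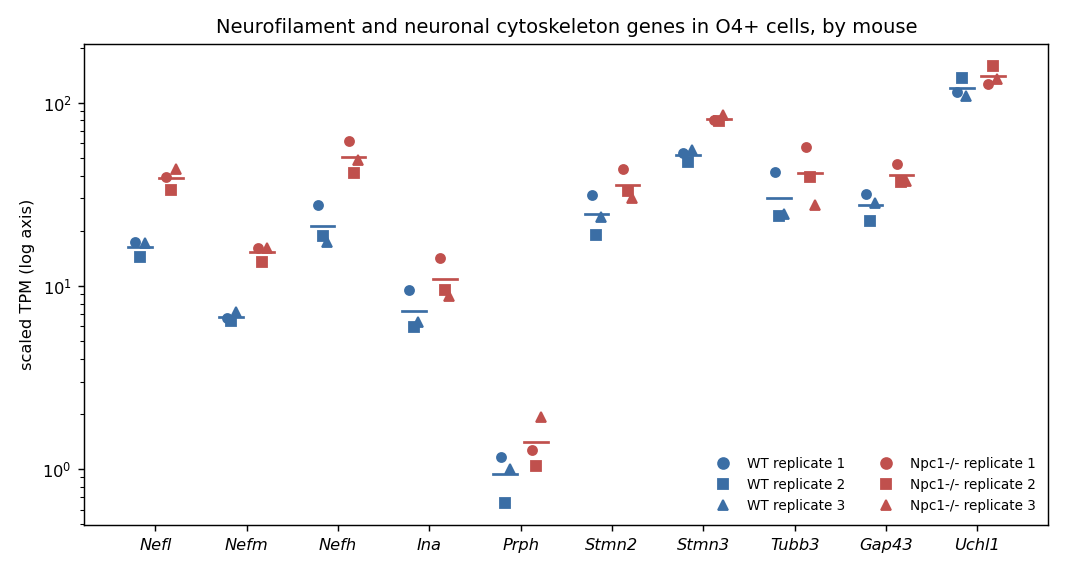
Scaled TPM of the 10 members in each of the 6 libraries, on a log axis. Each point is 1 library, and horizontal lines are the means of 3 libraries. The 3 Npc1-/- points lie above the 3 WT points for *Nefl*, *Nefm*, *Nefh*, *Stmn3* and *Gap43*, and the groups overlap for the other 5.

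The 5 filament genes are relatives, which bears on how far their RNAs can be told apart. The longest run of identical bases between coding sequences (GENCODE M21, GRCm38) was 17 for *Nefl* and *Nefm* and 23 for *Nefm* and *Nefh*. No 50-base stretch of *Nefh*, *Prph* or the *Nefm-201* transcript occurred in a transcript of another gene.

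*Nefh* alone among the 5 held a repeated unit. The 18-base word with the most copies in its coding sequence, shown since it sets *Nefh* apart from its relatives and written in capitals throughout as the repeated unit, occurred 9 times, and no 18-base word of the other 4 occurred more than once.

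Nefh repeat: TGAGGCCAAATCTCCAGC

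The positions of *Nefl* and *Nefm* bear on their values. *Nefl* lies at chr14:68083863-68089095 on the plus strand, and *Nefm* at chr14:68082590-68124846 on the minus strand. The annotation gives *Nefm* 2 transcripts. The last exon of the longer, *Nefm-202*, covers 1108 bases of the first exon of *Nefl* (chr14:68083863-68084970), which is 32.8% of the *Nefl* transcript, whereas *Nefm-201* shares no base with it. The sources do not say whether fragments were counted by strand. Without strand, fragments from that stretch could be given to either gene, so the levels of *Nefl* and *Nefm* are not fully separate measurements. *Ina* and *Uchl1* overlap *Nt5c2* and *Uchl1os* on the other strand in the same way, with 12.8% and 16.2% of their 50-base windows shared.

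The genes beside the pair were not called. *Dock5*, an exchange factor for small GTPases, stood at 3.13 to 4.52 scaled TPM in WT and 2.99 to 5.27 in Npc1-/- libraries (log2 fold change 0.03, SE 0.21, limma with Benjamini-Hochberg adjustment, adjusted p = 0.946). The other nearest protein-coding genes, *Gnrh1* on the same side and *Adam7* and *Adamdec1* on the far side, were at 0.19 TPM or less in every library and were not tested.

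*Ina*, which co-assembles with the triplet in central neurons, reached 9.46, 5.96 and 6.37 scaled TPM in WT and 14.2, 9.51 and 8.77 in Npc1-/- libraries. WT replicate 1 lay above Npc1-/- replicate 3, so the groups overlapped, and replicate 1 was the highest of each genotype. The log2 fold change was 0.54 (SE 0.23). *Prph* was the lowest of the 10 genes, at 1.16, 0.651 and 1.00 scaled TPM in WT and 1.26, 1.04 and 1.91 in Npc1-/- libraries, an estimated 31 to 82 fragments per library. Its groups overlapped too (log2 fold change 0.40, SE 0.23).

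Ratios within a library do not depend on the size factors. *Nefm* over *Nefl* was 0.419 ± 0.029 in WT libraries against 0.394 ± 0.023 in mutant ones, and *Nefh* over *Nefl* was 1.31 ± 0.290 against 1.31 ± 0.236 (each SD, n = 3). Both ratios overlapped between genotypes. *Ina* over *Nefl* was 0.548, 0.413 and 0.373 in WT and 0.362, 0.285 and 0.202 in Npc1-/- libraries, so each mutant ratio lay below each WT ratio. For *Ina* over *Nefl* the gap was narrow, from 0.373 in the lowest WT library to 0.362 in the highest mutant one. These ratios are a description only, since *Nefl* and *Nefm* were chosen for their rise. The 2 genes may also not be fully separate measurements.

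The stathmins bind tubulin dimers and regulate microtubule growth, and the neuronal forms sit on membranes of growing axons. *Stmn3* had 53.0, 47.4 and 55.1 scaled TPM in WT and 80.6, 80.0 and 85.3 in Npc1-/- libraries. It varied least of the 10 genes, with an SD of 0.086 on the log2 scale within genotypes, and the groups did not overlap. The WT mean was 51.8 ± 3.97 and the Npc1-/- mean 81.9 ± 2.90 (each SD, n = 3), a log2 fold change of 0.66 (SE 0.09). *Stmn2*, its axonal relative, stood at 31.4, 19.0 and 23.8 scaled TPM in WT and at 43.4, 32.8 and 30.3 in Npc1-/- libraries. Here WT replicate 1 lay above Npc1-/- replicate 3 (log2 fold change 0.53, SE 0.20).

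*Tubb3* encodes the β-tubulin of neurons and was listed at 42.0, 23.9 and 24.6 scaled TPM in WT and at 57.1, 39.4 and 27.7 in Npc1-/- libraries. The spread within a genotype was the widest of the 10, with an SD of 0.48 on the log2 scale, and the groups overlapped. The log2 fold change was 0.44 with an SE of 0.30. *Gap43*, a growth cone protein at the inner membrane, had 31.6, 22.5 and 28.4 scaled TPM in WT and 46.3, 36.9 and 37.2 in Npc1-/- libraries. Its groups did not overlap (log2 fold change 0.54, SE 0.15). *Uchl1*, a ubiquitin C-terminal hydrolase abundant in neurons, had the highest level of the 10 and the smallest difference. Its scaled TPM was 115, 136 and 109 in WT and 126, 159 and 134 in Npc1-/- libraries, so the groups overlapped. Its log2 fold change of 0.22 (SE 0.13) was the only one of the 10 to change sign, to -0.15, when TPM were used as deposited.

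In WT cells the order of mean levels was *Uchl1*, *Stmn3*, *Tubb3*, *Gap43*, *Stmn2*, *Nefh*, *Nefl*, *Ina*, *Nefm* and *Prph*. The ranges of *Tubb3*, *Gap43*, *Stmn2* and *Nefh* ran into each other from one to the next, as did those of *Ina* and *Nefm*. In Npc1-/- cells *Uchl1* and *Stmn3* again led and *Prph* was again last, but *Nefh* was at rank 3 and *Nefl* at rank 6. The neighbours from *Nefh* to *Stmn2* in that order, by way of *Tubb3*, *Gap43* and *Nefl*, did not separate beyond their ranges, nor did *Nefm* and *Ina*.

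All 10 members had a log2 fold change above 0 (9 of 10 with TPM as deposited), as did 51.0% of all genes tested. In 5 the groups did not overlap, with Npc1-/- higher, which holds for 13.3% of all genes tested, and none was lower throughout. Their median log2 fold change was 0.54, and that of all genes tested was 0.01. By limma, *Nefl*, *Nefm* and *Stmn3* were called (adjusted p below 0.05 over all genes), 3 of 10, where 0.813% of all genes were called in either direction and 0.400% as higher. These counts follow in part from how the members were chosen, and nothing is read from them. The 3 calls were also lost when WT replicate 1, 2 or 3 or Npc1-/- replicate 1 or 2 was left out (0 of 10 called each time), and were kept without Npc1-/- replicate 3.

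**Figure D2:**
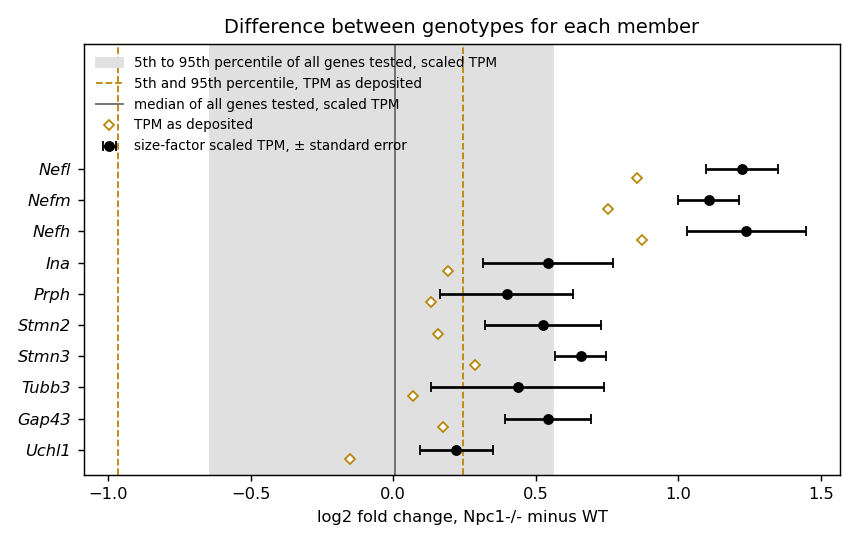
Log2 fold change (Npc1-/- minus WT) of each member with its standard error (black, scaled TPM) and from TPM as deposited (open diamonds), over the 5th to 95th percentile of all 15245 genes tested (grey). Dashed lines are the same percentiles with TPM as deposited. *Nefl*, *Nefm*, *Nefh* and *Stmn3* lie above the 95th percentile of their own scale on both, and *Uchl1* changes sign.

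The size factors were larger in WT (1.04 to 1.3) than in Npc1-/- libraries (0.727 to 1.10), and they bear on each of these values. With TPM as deposited, the median of all genes tested was -0.33 on the log2 scale and that of the members 0.18. Relative to the median of all genes, *Nefl* was then at 1.18, *Nefm* at 1.08, *Nefh* at 1.20 and *Stmn3* at 0.61. On that scale the groups did not overlap for 2 members, *Nefl* and *Nefm*.

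The members differed in how much they varied within a genotype. *Nefl*, *Nefm*, *Stmn3* and *Uchl1* had SDs of 0.17, 0.11, 0.09 and 0.17 on the log2 scale. *Tubb3*, *Ina*, *Nefh* and *Stmn2* had SDs of 0.31 to 0.48, and each was highest in replicate 1 of both genotypes. *Gap43* lay between, at 0.22, and was also highest in replicate 1 of both. *Prph*, at 0.30, was highest in replicate 1 of WT and replicate 3 of Npc1-/- mice. Markers of neurons are given beside these values. The summed scaled TPM of 6 Purkinje cell markers (*Pcp2*, *Pcp4*, *Car8*, *Calb1*, *Pvalb* and *Ppp1r17*) was 340, 326 and 302 in WT and 936, 921 and 1089 in Npc1-/- libraries. It was 3.05-fold higher in the mutant and nearly level within a genotype. Most of this sum was *Pcp2* and *Pcp4*, so its fold and evenness are mainly those of these genes. The sum of 5 markers of cerebellar granule neurons (*Neurod1*, *Cbln1*, *Cbln3*, *Gabra6* and *Fat2*) was 32.9, 11.8 and 10.7 in WT and 43.0, 25.1 and 11.6 in Npc1-/- libraries. The sum was highest in replicate 1 of each genotype. Most of it was *Neurod1*, except in replicate 3 of each genotype. *Neurod1* stood at 25.4, 7.92 and 3.31 in WT and 34.9, 17.3 and 4.28 in Npc1-/- libraries. *Gabra6* and *Cbln3* were highest in replicate 3 of each genotype instead, so the list did not vary as one. The part of either kind of neuronal RNA in the members' values was not tested. In bulk libraries, a change in the number of cells of a type cannot be told apart from a change in RNA per cell.

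**Figure D3:**
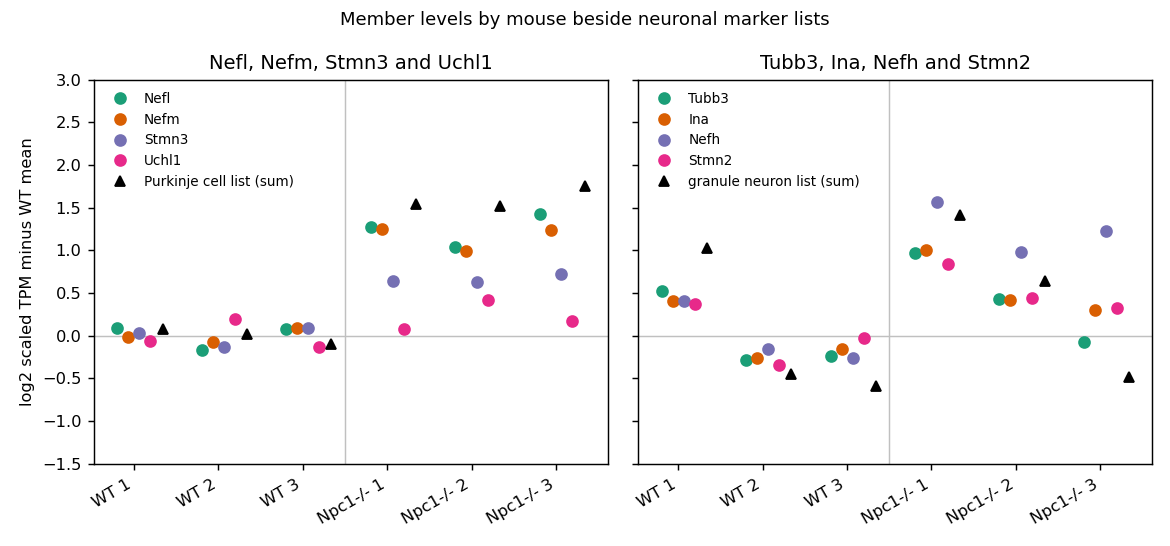
Log2 scaled TPM of 8 members in each library, relative to its WT mean, beside the summed level of the Purkinje cell list (left, triangles) and the granule neuron list (right, triangles). The 4 members on the left have within-genotype SDs of 0.17 or less. On the right replicate 1 is highest in both genotypes, also for the list, whose sum is mostly *Neurod1* except in replicate 3.

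The 4 Purkinje markers that were called all rose. *Pcp4*, a small calmodulin regulator, went from 104 to 111 scaled TPM in WT to 303 to 364 in Npc1-/- libraries (log2 fold change 1.62, SE 0.10, adjusted p = 0.00255). *Pvalb*, a calcium-binding protein of Purkinje cells and fast interneurons, went from 23.6 to 27.0 up to 73.0 to 87.3 (1.62, SE 0.10, adjusted p = 0.00255). *Pcp2* went from 164 to 193 up to 511 to 614 (1.60, SE 0.12, adjusted p = 0.00674), and *Car8* from 4.55 to 5.38 up to 11.4 to 13.5 (1.24, SE 0.11, adjusted p = 0.0133). *Calb1* (log2 fold change 0.93) and *Ppp1r17* (0.64) did not overlap between genotypes but were not called. *Pcp4* and *Pvalb* passed without any 1 library. *Pcp2* was lost without Npc1-/- replicate 2, and *Car8* without that library or without WT replicate 2 or 3. *Car8* was also lost with TPM as deposited.

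The ratio of *Nefl* to each Purkinje marker within a library is given as a description, since *Nefl* was chosen for its difference. *Nefl* over *Pvalb* was 0.640, 0.611 and 0.650 in WT and 0.539, 0.424 and 0.498 in Npc1-/- libraries, all lower in the mutant. It was also lower throughout over *Pcp4* (0.151 ± 0.017 against 0.116 ± 0.0052) and over *Pcp2* (0.0907 ± 0.0132 against 0.0706 ± 0.0066). The groups overlapped for *Nefl* over *Car8* (3.34 ± 0.373 against 3.16 ± 0.431), over *Calb1* (5.96 ± 0.697 against 6.99 ± 1.90) and over *Ppp1r17* (23.9 ± 6.94 against 29.6 ± 9.30), where the mutant mean was lower for the first and higher for the others (SD, n = 3).

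The other neuronal lists held no call. Of the 10 pan-neuronal markers limma called 0, with 2 at an unadjusted p below 0.05 (22.2% of all genes tested) and a median log2 fold change of 0.27, or -0.09 with TPM as deposited. They ran from *Stx1a*, a synaptic syntaxin (0.02, adjusted p = 0.958), to *Eno2*, the neuronal enolase (0.60, adjusted p = 0.195), and summed to 188 to 234 scaled TPM in WT and 226 to 297 in Npc1-/- libraries. Among granule neuron genes the transcription factor *Neurod1* had the highest log2 fold change (0.62, SE 0.87, adjusted p = 0.735) and *Cbln3* the lowest (-0.03, adjusted p = 0.964). The 5 cortical projection neuron genes summed to 52.5 to 99.9 in WT and 46.2 to 99.5 in Npc1-/- libraries, with *Neurod6* at 0.07 (adjusted p = 0.869) and *Camk2a* at -0.28 (adjusted p = 0.700). The 5 GABAergic genes summed to 8.41 to 15.1 and 11.2 to 19.2, with *Sst* at 0.46 (adjusted p = 0.353) and *Gad2* at 0.00 (adjusted p = 0.998). In none of these 3 lists of neuron types did a gene reach an unadjusted p below 0.05. Of 7 brainstem and motor neuron genes, 5 were too low to test, among them *Chat* and *Isl1*, and *Slc17a6* (0.00, adjusted p = 0.997) and *Slc5a7* (-0.21, adjusted p = 0.698) did not pass. Over all 38 neuronal markers, 30 were tested, 4 were called higher and 0 lower (0.400% and 0.413% of all genes tested). The lists were chosen with earlier results of these data known, so nothing is read from these counts.

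Related genes of the cytoskeleton were measured for comparison: 63 genes, of which 62 were tested. By limma 0 were called higher and 1 was called lower (0.400% and 0.413% of all genes tested), with 11 higher and 7 lower at an unadjusted p below 0.05. The groups did not overlap in 12 with Npc1-/- higher and in 8 with it lower (13.3% and 14.2% of all genes tested). Their median log2 fold change was 0.15, between those of the members and of all genes, and it was -0.21 with TPM as deposited. *Vim*, the intermediate filament of glia, vessels and progenitors, fell from 195 to 204 scaled TPM in WT to 118 to 133 in Npc1-/- libraries (log2 fold change -0.69, SE 0.09, adjusted p = 0.0364). That call was lost when WT replicate 1, 2 or 3 or Npc1-/- replicate 1 or 2 was left out. Other intermediate filaments went both ways without passing. *Nes*, nestin of progenitors and vessels, was at -0.89 (adjusted p = 0.0839), and *Gfap*, the astrocyte filament, at 1.01 (adjusted p = 0.108), with 81.1, 100.2 and 85.2 scaled TPM in WT and 112, 187 and 272 in Npc1-/- libraries.

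The 10 tubulins tested, apart from *Tubb3*, had a median log2 fold change of 0.07. They ran from *Tubb6* (-0.36, adjusted p = 0.576) to *Tubb4a*, the main β-tubulin of oligodendrocytes (0.27, adjusted p = 0.340). The remaining stathmins were *Stmn4* (0.64, adjusted p = 0.0658), at 174 to 234 scaled TPM in WT and 280 to 342 in Npc1-/- libraries without overlap, and *Stmn1* (0.38, adjusted p = 0.413). Among microtubule-associated proteins, *Map4* was highest (0.54, adjusted p = 0.395) and the dendritic *Map2* lowest (-0.31, adjusted p = 0.147). The collapsin response mediators ran from *Dpysl4* (-0.26, adjusted p = 0.422) to *Dpysl5* (0.53, adjusted p = 0.0546). None of these passed, and with TPM as deposited none of the 10 tubulins was above 0.

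Genes that work beside neurofilaments in the axon were not called either. Their median log2 fold change was 0.34 for the membrane skeleton and 0.36 for motors and linkers. It was -0.03 for growth cone phosphoproteins, 0.15 for kinases and turnover factors and 0.32 for the other hydrolases. With TPM as deposited each of these medians was below 0. In the membrane skeleton, the nodal spectrin *Sptbn4* was at 0.73 (adjusted p = 0.0709) and *Sptan1* at -0.31 (adjusted p = 0.0997). All 7 axonal motor and linker genes were above 0, from *Dst* (0.08, adjusted p = 0.867) to the kinesin *Kif5b* (0.40, adjusted p = 0.396). With TPM as deposited, 2 of the 7 were above 0. Of the growth cone phosphoproteins, relatives of *Gap43* in function, *Basp1* was at 0.41 (adjusted p = 0.396) and *Marcks* at -0.44 (adjusted p = 0.164). Among kinases and turnover factors, *Cdk5r1*, an activator of a neurofilament kinase, was at 0.33 (adjusted p = 0.601) and the small heat shock protein *Hspb1* at -1.04 (adjusted p = 0.102). The other ubiquitin C-terminal hydrolases ran from *Bap1* (0.08, adjusted p = 0.654) to *Uchl5* (0.36, adjusted p = 0.140).

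**Figure D4:**
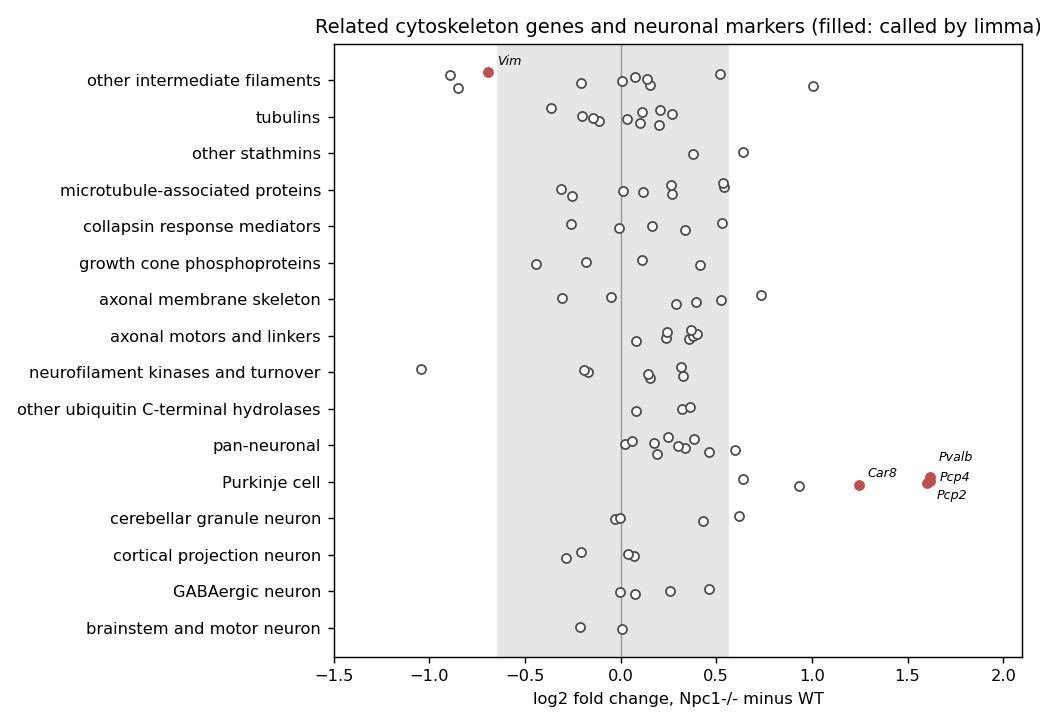
Log2 fold change (Npc1-/- minus WT) of each tested gene of the 10 cytoskeleton lists and 6 neuronal lists; filled points were called by limma, and the grey band is the 5th to 95th percentile of all genes tested. *Vim* was called lower, and the 4 genes called higher are all in the Purkinje cell list.

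Markers of non-neuronal cells are given for comparison. The sum of 4 microglial markers was 87.2 to 144 scaled TPM in WT and 35.9 to 62.3 in Npc1-/- libraries, and *Tmem119* among them fell (log2 fold change -1.44, SE 0.22, adjusted p = 0.0442). The *Tmem119* call was lost when WT replicate 1, 2 or 3 or Npc1-/- replicate 1 or 2 was left out. It was also lost without a filter and without the trend. The 4 astrocyte markers summed to 189 to 243 and 112 to 147, and the 3 endothelial markers to 383 to 557 and 273 to 331. All 11 were lower without overlap (14.2% of all genes tested) and 1 of 11 was called (0.413% of all genes were called lower). *Gfap*, the astrocyte filament and not among the 4 astrocyte markers, went the other way without overlap (log2 fold change 1.01, limma adjusted p = 0.108). The 6 markers of myelinating oligodendrocytes summed to 173998 to 245364 scaled TPM in WT and 219858 to 433792 in Npc1-/- libraries, with overlap, and none was called. The part of these markers' cells in the members' values was not tested.

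The 5 genes whose profile over the 6 libraries lay nearest to the mean profile of *Nefl* and *Nefm* were *Clec2l*, *Mapk8ip2*, *Car8*, *Gm20900* and *Arsg*. These profiles include the genotype difference for which *Nefl* and *Nefm* were chosen, so near genes share it by construction. The list is a description only. The distance was the root mean square difference of mean-centred log2 values, 0.063 for *Clec2l*, 0.064 for *Mapk8ip2*, 0.125 for *Car8*, 0.131 for *Gm20900*, a processed pseudogene, and 0.154 for *Arsg*, with a median of 0.617 over the other genes. *Clec2l* itself stood at 21.4, 19.3 and 23.1 scaled TPM in WT and at 52.2, 47.3 and 52.3 in Npc1-/- libraries. *Car8* is 1 of the 6 Purkinje markers. Among the members *Nefh* came nearest, at rank 44, then *Stmn3* at rank 70 and *Gap43* at rank 296, and *Tubb3* was farthest at rank 4252.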

How the data were processed

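Poly(A) RNA of O4+ cells was sequenced from 3 WT and 3 Npc1-/- mice at P16. The authors deposited TPM and FPKM per gene, to 2 decimals, for build GRCm38. Per the labels, the submitters' processing notes name cutadapt 2.3, FastQC 0.11.8, STAR 2.7.8a, RSEM 1.3.3 and MultiQC 1.7, whereas the study's methods describe trimming with bbduk, STAR, featureCounts and DESeq2. Which of these made the deposited TPM and FPKM values, and whether strand was used, is not given in the sources used here. FPKM was TPM times 1 factor per library to within 0.0234% for genes above 50 TPM.

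Groups were taken from the sample titles. The members and the lists of related genes were chosen with earlier results of these data known. TPM were divided by median-of-ratios size factors over 18690 genes above 0 in every library. The 15245 of 55492 genes whose mean TPM reached 0.5 were tested on log2(scaled TPM + 0.5), so fold changes of low genes are understated. The test was limma 3.58.1 (R 4.3.3), trend and two-sided, with Benjamini-Hochberg adjustment over all genes tested. Calls needed an adjusted p below 0.05 and a log2 fold change of at least 0.1 in size. In simulated data with 200 genes changed by 1.5 on the log2 scale, the fit recovered 165 (82.5%) and called 7 unchanged genes. Smaller changes, such as those of the members, were not simulated. P-values measure the spread between 3 libraries per genotype, each taken as 1 mouse.

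Named genes were all members, *Npc1*, every called list gene, the highest and lowest tested gene of each list, the 2 nearest protein-coding genes on each side of *Nefm* and *Nefl*, the 5 nearest profiles and the cell markers. Depth is an estimate from the step size of low FPKM values. Of these, 82.7% to 85.2% per library fell within 0.15 of a whole number of fragments (30% by chance). These estimates cover counting error only. Sequences and coordinates came from GENCODE M21, which held 55141 of the gene IDs. Alternatives covered the unit, scaling, pseudocount, filter, variance model, transcript length, replicate block and each library left out. A comparison of stretches within the filament genes is not reported here.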

Additional observations from a re-analysis of the deposited data

How the results depend on the processing

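Over all genes tested, 124 were called (61 higher, 63 lower). Other settings gave 924 with TPM as deposited (54 higher, 870 lower), 225 with quantile normalization (92 higher, 133 lower), 21 without a filter (28469 genes tested, 14 higher, 7 lower), 447 with a mean TPM of at least 5 (175 higher, 272 lower), 42 without the trend (26 higher, 16 lower), and 4 to 486 with 1 library left out. The fewest were called without Npc1-/- replicate 2 and the most without Npc1-/- replicate 3. The median of the members was 0.18 with TPM as deposited and 0.41 to 0.70 with 1 library left out. Of the 62 related cytoskeleton genes, 1 was called. In the same settings 4, 2, 0, 3 and 0 were called, 2 with a transcript length curve removed, and 0 to 3 with 1 library left out. Of the neuronal markers 4 were called, 3 with TPM as deposited, and 2 to 4 with 1 library left out. Of 169 alternative values for the members, 159 moved by less than the spread between replicates and 10 by more, 8 of them with TPM as deposited. The filters, variance models and replicate block cannot alter a member's log2 fold change, so those values were bound to stay. The spread is the SD of single libraries, which for *Tubb3* (0.48) exceeds its log2 fold change (0.44). A move smaller than this spread is thus a weak check. *Stmn3* was at 0.57 after quantile normalization and 0.51 with the length curve removed, and *Uchl1* at 0.08 with that curve. The number of members called was 1 with TPM as deposited (*Nefl*), 1 without a filter (*Nefm*), 4 with a mean TPM of at least 5, and 2 without the trend. The causes of these shifts were not tested.

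The replicate numbers are shared between genotypes, but the labels do not say that they pair the mice, so they were not taken as pairs. Deviations from the genotype means correlated at 0.41, 0.06 and 0.33 across genes for numbers 1, 2 and 3. Each library did correlate best with its own number, which is a hint from the data and not from the design. With a block for the replicate number, 2011 genes were called, 13.2% of those tested (1143 higher, 868 lower), with 20 related cytoskeleton genes (17 higher, 3 lower), 8 neuronal markers and 7 members, all but *Prph*, *Tubb3* and *Uchl1*.

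Depth limits *Prph* most, at an estimated 31 to 82 fragments. A gene that was not called is not shown to be equal in the genotypes.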

Other observations

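Several cytoskeleton genes outside the 10 members were also highest in replicate 1 of both genotypes and were chosen here after their values were seen. Others went the other way: *Stmn1*, *Map4* and *Klc1* were highest in replicate 3 of both genotypes. How many genes followed either pattern was not counted. *Dcx*, doublecortin of migrating young neurons, stood at 6.13, 3.21 and 1.87 scaled TPM in WT and at 7.86, 4.29 and 2.05 in Npc1-/- libraries. *Basp1*, a growth cone phosphoprotein, stood at 109, 75.6 and 70.9 in WT and at 152, 113 and 80.7 in Npc1-/- libraries. *Crmp1*, a collapsin response mediator, stood at 13.5, 6.62 and 7.09 in WT and at 18.7, 10.6 and 6.67 in Npc1-/- libraries. None of these was called by limma (adjusted p = 0.804 for *Dcx*, 0.396 for *Basp1* and 0.675 for *Crmp1*). *Tubb3* over *Dcx* was 9.17 ± 3.50 in WT and 9.98 ± 3.20 in Npc1-/- libraries (SD, n = 3). By library it was 6.86, 7.46 and 13.2 in WT and 7.26, 9.17 and 13.5 in Npc1-/-. It was highest in replicate 3 of both genotypes, so *Tubb3* and *Dcx* did not vary as one.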
